A study of Mus musculus with 6 samples.

Results

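The miR-200 family comprises 5 mature miRNAs of epithelial cells, mmu-miR-200a, mmu-miR-200b, mmu-miR-429, mmu-miR-200c and mmu-miR-141, and it was followed here in newborn mouse lung after hyperoxia. Its assays were chosen by name, with species prefix, arm and letter case ignored and opposite strands left out. This gave 7 of the 768 wells of the table, 5 on the first of 2 RT-PCR cards and 2 on the second. Newborn mice, less than a day old at the start, spent 7 days either in room air (3 samples) or in 95% oxygen (hyperoxia, 3 samples), and the right lung was taken on day 7 after the pulmonary artery had been flushed with buffer. The dams were moved between room air and hyperoxia every day. Strain, genotype, sex and any pooling of animals are not described in the sources used here, and whole lung was measured, so fewer epithelial cells and less of a miRNA per epithelial cell cannot be told apart.

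In epithelial cells, miR-200 miRNAs repress ZEB1 and ZEB2, transcription factors that switch off E-cadherin and other epithelial genes. ZEB1 and ZEB2 in turn repress transcription of the miR-200 genes, so that each side of this double-negative loop holds the other down. Loss of miR-200 accompanies epithelial-mesenchymal transition, in which epithelial cells lose their junctions and take on mesenchymal features. In the lung the family is typical of airway and alveolar epithelium. Neither ZEB mRNAs nor any other target was measured on these cards.

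The mature sequences are shown because they divide the family by seed, the bases 2 to 8 that pair with targets, in a way that cuts across its division by transcript. They are from RefSeq (mouse assembly GRCm38.p6), 5′ to 3′, with the seed in capitals. The matching mature miRNA was found for all 5 members.
mmu-miR-200b: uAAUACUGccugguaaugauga
mmu-miR-200c: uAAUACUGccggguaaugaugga
mmu-miR-429: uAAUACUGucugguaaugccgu
mmu-miR-200a: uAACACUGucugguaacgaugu
mmu-miR-141: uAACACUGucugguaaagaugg

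The seed AAUACUG of miR-200b, miR-200c and miR-429 occurred in these 3 of the 1738 mature mouse sequences of that table, and the seed AACACUG of miR-200a and miR-141 in these 2. The seeds differ by a single base. From miR-200b to miR-200a it is written U4C, counted from 1 at the 5′ end. Over 22 positions, miR-200b and miR-200c were identical at 20 (differences U11G and A22G), as were miR-200a and miR-141 (C17A and U22G), while the other pairs were identical at 17 or 18. How far one assay also reads a neighbour that differs by 2 bases was not tested.

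The hairpins lie in 2 clusters, each held to be made as 1 primary transcript. On the minus strand of chromosome 4, the hairpins of miR-200b (chr4:156055681-156055750), miR-200a (chr4:156054896-156054985) and miR-429 (chr4:156053905-156053987) span 1846 bases, within the annotated gene Gm13648, a long noncoding RNA. On the minus strand of chromosome 6, those of miR-200c (chr6:124718322-124718390) and miR-141 (chr6:124717914-124717985) span 477 bases between the genes Phb2 and Ptpn6. Each transcript thus carries both seeds.

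The value of a well is its threshold cycle (Ct), the number of PCR cycles needed to reach a set signal. Abundant RNAs have a low Ct, and at full efficiency a delay of 1 cycle means a fold of 2 less RNA. A Ct of 35 or more was taken as not detected. Between 307 and 319 miRNAs per sample were detected on the first card, and between 268 and 288 in the 4 samples used on the second. On the second card, room air 1 and hyperoxia 2 had the identical Ct in 308 of 309 wells that amplified in both, against 0 of 312 on the first card, so their second-card values were left out. The labels do not say that the samples came from separate animals, so p-values reflect only the variation among these samples, some of which may be technical.

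All 5 members were detected in all 6 samples on the first card, with a Ct far under the ceiling of detection. miR-200c, which targets the ZEB mRNAs through the AAUACUG seed, had a Ct of 16.37, 16.20 and 17.06 in room air against 17.41, 17.25 and 17.59 in hyperoxia. For miR-200b, of the same seed, the Ct was 16.72, 17.40 and 17.03 in room air against 18.00, 18.20 and 17.59 in hyperoxia. For both, every hyperoxia sample crossed the threshold later than every room air sample.

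miR-429, the third miRNA with that seed, was at 16.88, 17.54 and 17.86 in room air and at 18.58, 18.38 and 18.19 in hyperoxia. miR-200a was at 17.31, 17.63 and 17.73 in room air and at 18.27, 18.20 and 18.19 in hyperoxia, where its 3 samples lay very close together (18.2 ± 0.040, SD, n = 3). miR-141, which shares the seed of miR-200a, came later than the rest, at 20.32, 20.40 and 20.64 in room air and at 21.77, 20.98 and 20.97 in hyperoxia. The groups did not overlap for these 3 miRNAs either.

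The deposited Ct was thus later in hyperoxia for 5 of 5 members, by 0.66 cycles for miR-200a, 0.79 for miR-141, 0.88 for both miR-200b and miR-200c, and 0.96 for miR-429. This was common on the card. Of the 282 assays that every sample detected on the first card, 46.5% had every hyperoxia sample later than every room air sample, and the mean Ct of these assays was later by 0.76 cycles (22.03, 22.48 and 22.60 in room air, 23.47, 22.61 and 23.31 in hyperoxia). The delay of the members was therefore read against that of the other miRNAs of the card.

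Measured that way, as a log2 relative abundance (mean Ct of the detected miRNAs of the card minus the Ct of the assay), the family showed no difference between hyperoxia and room air that exceeded the spread between samples. The 5 log2 fold changes lay between -0.20 and 0.10, 4 below 0 and 1 above, with a median of -0.12. Over all 302 first-card assays tested, 178 were below 0 and the median was -0.13. The groups overlapped for 5 of 5 members, where 16.3% of first-card assays had all hyperoxia samples below all room air samples and 5.67% had them all above. In limma's test with Benjamini-Hochberg adjustment over all 551 assays, 0% were called higher and 0% lower, although 50 had an unadjusted p under 0.05 (20 higher, 30 lower); none of the 7 family assays was among these 50.

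**Figure D1:**
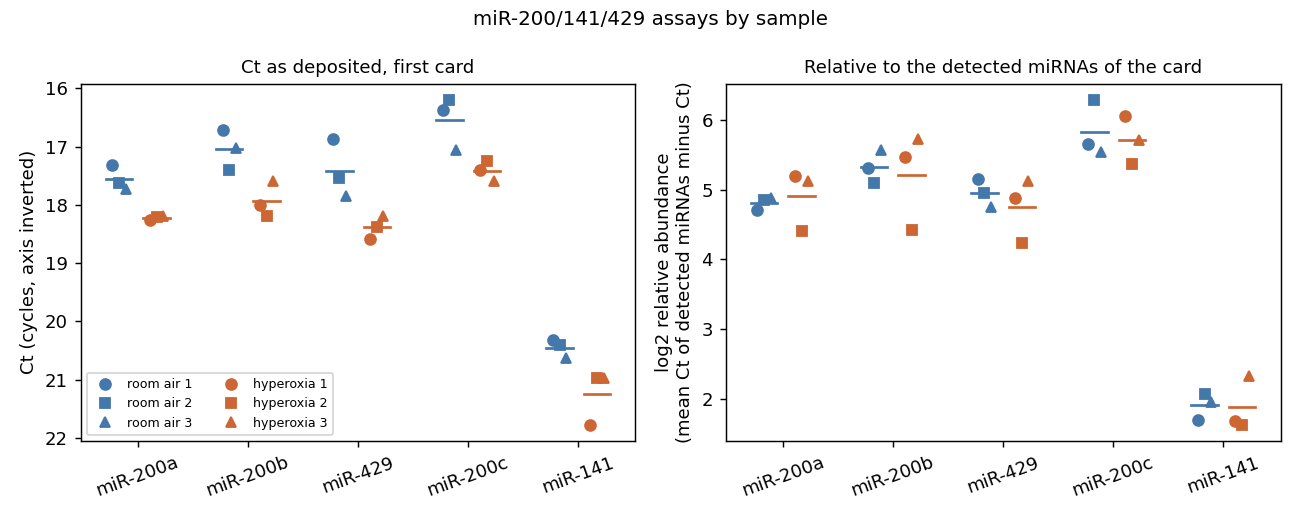
Each point is 1 sample on the first card and each line a group mean (n = 3), with Ct on an inverted axis at left and log2 relative abundance at right. At left all hyperoxia points lie below all room air points for each member; at right the groups overlap for each of the 5, and hyperoxia 2 (squares) is the lowest sample of each.

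miR-200c had a relative abundance of 5.83 ± 0.40 (SD, n = 3) in room air against 5.71 ± 0.35 in hyperoxia, a log2 fold change of -0.12 ± 0.33 (SE, limma adjusted p = 0.935). miR-200b was at 5.32 ± 0.24 and 5.20 ± 0.69, a change of -0.12 ± 0.41 (adjusted p = 0.935). Its hyperoxia samples spread widely, at 5.47, 4.42 and 5.72, around room air samples at 5.31, 5.09 and 5.56.

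miR-429 had the most negative value of the family, -0.20 ± 0.32 (limma adjusted p = 0.867), with samples at 5.15, 4.95 and 4.74 in room air and at 4.89, 4.23 and 5.12 in hyperoxia. miR-200a had the single positive value, 0.096 ± 0.30 (adjusted p = 0.935). In room air it was at 4.71, 4.85 and 4.87, a narrow band that its hyperoxia samples straddled at 5.20, 4.41 and 5.12. miR-141 was at 1.70, 2.08 and 1.96 in room air and at 1.69, 1.64 and 2.34 in hyperoxia, a change of -0.026 ± 0.29 (adjusted p = 0.976).

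The 95% intervals of these changes show what 3 samples per group can tell. As folds of hyperoxia over room air they ran from 0.639 to 1.79 for miR-200a and from 0.591 to 1.63 for miR-141. They were 0.523 to 1.63 for miR-200c and 0.501 to 1.51 for miR-429, while that of miR-200b, from 0.453 to 1.87, was the widest. Changes within these limits, in either direction, are compatible with these values. The limits are not thresholds of detection. Outside the family, miR-34a at a fold of 5.85, with an interval from 3.64 to 9.41, did not pass either (limma adjusted p = 0.0723). Among the 282 fully detected first-card assays ordered from the most negative change, the members took places 133 (miR-429), 149 (miR-200b), 151 (miR-200c), 168 (miR-141) and 186 (miR-200a), the middle of the list.

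Hyperoxia 2 had the lowest relative abundance of the 6 samples for 5 of 5 members, a pattern noticed after the values were seen; it was the lowest sample for 25.2% of the 282 assays. It was also the lowest for 3 of 3 ciliated airway assays and 2 of 6 other epithelial assays on the first card. On the other lists below it was the lowest for 1 of 2 endothelial, 1 of 2 erythroid and 3 of 9 epithelial-mesenchymal transition assays. The same held for 1 of 4 leukocyte, 1 of 4 smooth muscle and mesenchymal and 1 of 6 striated muscle assays. In hyperoxia 2, miR-449a of ciliated cells was at 1.20, beside 3.09 and 3.55 in the other hyperoxia samples and 3.62 to 4.29 in room air. All hyperoxia samples of miR-449a thus lay below all room air samples, as 16.3% of first-card assays did. miR-375 was at 0.98 in hyperoxia 2, beside 2.57 and 2.46 in the other hyperoxia samples and 2.25 to 2.65 in room air. Their part in the family's values was not tested. The Ct of hyperoxia 2 for the members resembled that of the other hyperoxia samples, and its mean Ct over all detected miRNAs was 22.61. With the mean of 5 small RNA controls as reference, it was still the lowest sample for miR-200a (-1.80), miR-200b (-1.79), miR-429 (-1.98) and miR-200c (-0.85). For miR-141 hyperoxia 1 was lower on that scale (-4.82 against -4.57). What sets the low values of hyperoxia 2 was not tested. Without hyperoxia 2, all 5 members lay above 0, from 0.064 for miR-429 to 0.36 for miR-200a, with 0 passing the test, and the median of all first-card assays was -0.13. The sign of 4 of the 5 values thus turned on this sample. Other samples turned fewer signs: without room air 2, miR-200c was at 0.11 and miR-141 at 0.057, without hyperoxia 1, miR-200a was at -0.059 and miR-141 at 0.064, and without hyperoxia 3, miR-200a was at -0.039.

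The reference also moved the values. With the mean of 5 small RNA controls (U6, snoRNA135, snoRNA202, U87 and Y1) in place of the miRNAs, all 5 members lay below 0, from -0.77 for miR-429 to -0.47 for miR-200a, and the median of all first-card assays was -0.69. On that scale the groups overlapped for 5 of 5 members, where 37.2% of first-card assays had all hyperoxia samples below all room air samples. miR-429, for example, was at -0.43, -0.41 and -1.14 in room air and at -1.63, -1.98 and -0.67 in hyperoxia, so that hyperoxia 3 lay among the room air samples. The control RNAs did not move alike. In hyperoxia U6 was later by 0.75 cycles (mean of its first-card wells), Y1 by 0.41 and snoRNA202 by 0.038. snoRNA135 (-0.078) and U87 (-0.13) were earlier. The lowest limma adjusted p of a first-card member was 0.506 with the control RNAs and 0.215 without any reference.

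The authors' deposited table gives a fold of hyperoxia over room air relative to U6, with no test. It lists 0.85 for miR-200a, 0.78 for miR-141, 0.74 for miR-200c, 0.73 for miR-200b and 0.69 for miR-429. These folds match U6 of plate row A as reference, not the mean of the U6 wells given above. Against U6 of row A, the log2 fold changes ran from -0.53 for miR-429 to -0.23 for miR-200a.

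**Figure D2:**
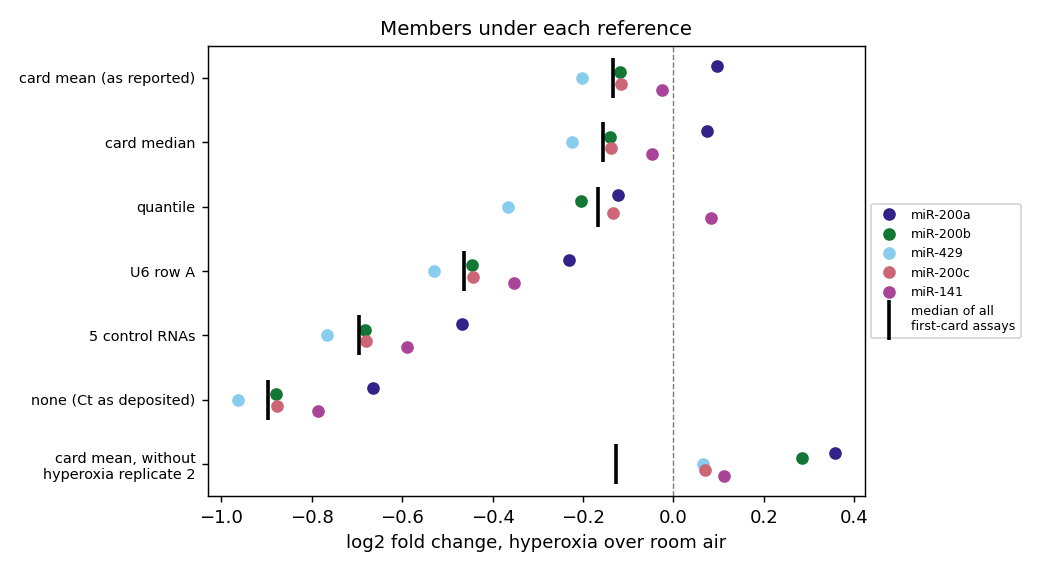
Each coloured point is the log2 fold change of a member on the first card and each black bar the median of all first-card assays, under the reference named at left. The points move with the bar from row to row, except in the lowest row, without hyperoxia 2, where all 5 lie to its right and above 0.

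The members of the chromosome 4 transcript and those of the chromosome 6 transcript were then set against each other within each sample, a difference that does not depend on a reference shared by the card. The mean of miR-200c and miR-141 minus the mean of miR-200a, miR-200b and miR-429 was -1.38, -0.78 and -1.31 in room air against -1.31, -0.86 and -1.29 in hyperoxia. The groups overlapped, with means of -1.16 ± 0.33 and -1.15 ± 0.26 (SD, n = 3) and a difference of 0.0041. Leaving out 1 sample at a time moved this difference between -0.14 and 0.19. No shift in the balance of the transcripts beyond the spread between samples was seen.

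Each transcript on its own also differed between the groups by less than the spread between samples. The chromosome 4 transcript stood at 5.03 ± 0.056 (SD, n = 3) in room air against 4.95 ± 0.52 in hyperoxia, its wider spread in hyperoxia coming from hyperoxia 2 at 4.35 beside 5.18 and 5.32. The chromosome 6 transcript stood at 3.87 ± 0.27 in room air against 3.80 ± 0.27 in hyperoxia.

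By seed, the mean of miR-200b, miR-200c and miR-429 (AAUACUG) minus that of miR-200a and miR-141 (AACACUG) was 2.17, 1.97 and 1.86 in room air against 2.02, 1.65 and 1.79 in hyperoxia. The groups overlapped here too. The group means differed by -0.18, about the size of the SD within a group (0.15 in room air against 0.19 in hyperoxia, n = 3).

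**Figure D3:**
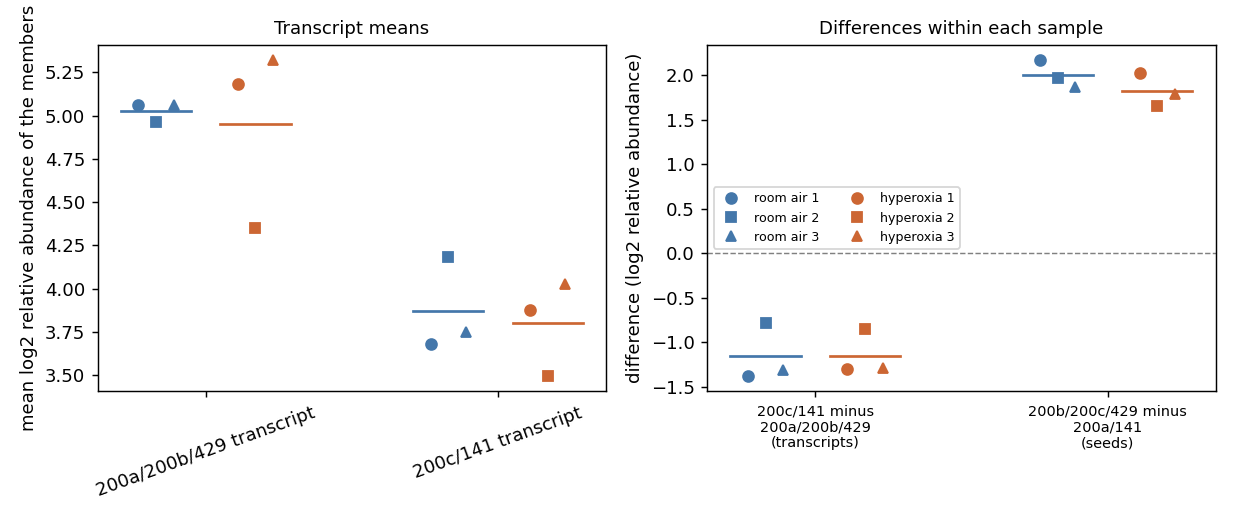
Points are samples and lines group means (n = 3) of log2 relative abundance on the first card, for the mean of each transcript's members at left and for the differences between transcripts and between seeds at right. In both panels the room air and hyperoxia points overlap, and hyperoxia 2 is the lowest point of each transcript.

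Within a transcript, the members of chromosome 4 read at nearly one level. miR-200b exceeded miR-200a by 0.60, 0.23 and 0.69 in room air and by 0.27, 0.0090 and 0.61 in hyperoxia, and miR-429 minus miR-200a was 0.44, 0.094 and -0.13 in room air against -0.32, -0.18 and 0 in hyperoxia. On chromosome 6, miR-200c exceeded miR-141 by 3.96, 4.20 and 3.58 in room air and by 4.36, 3.72 and 3.38 in hyperoxia. This gap was much larger than the spread between samples and did not separate the groups. Different assays can amplify with different efficiency, so it is a difference in Ct and not a measured ratio of molecules.

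By Ct in room air, miR-200c was the 23rd earliest of the 282 assays, miR-200b the 32nd, miR-429 the 38th, miR-200a the 40th and miR-141 the 111th. The first 4 were therefore among the early assays of whole lung RNA. The SD within groups was 0.31 for miR-200a and miR-141, 0.35 for miR-429, 0.37 for miR-200c and 0.52 for miR-200b, against a median of 0.42 over these assays.

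Likeness of pattern was measured over the 6 samples as the root mean square difference between assays, each centred on its own mean, where 0 would be the same course. As a description, the chromosome 4 members lay at 0.24 to 0.27 from each other, but many other assays lay as near. Among the 281 other assays, miR-200a was the 2nd nearest to miR-200b and miR-429 the 4th, whereas seen from miR-200a, miR-429 was the 18th and miR-200b the 20th, and seen from miR-429, miR-200a was the 16th and miR-200b the 19th. miR-200c and miR-141 lay further apart, at 0.34, and each was nearer to miR-200a (0.27 and 0.26) than to its transcript partner. The pair with the greatest distance, 0.46, was miR-200b and miR-200c, whose sequences differ at 2 of 22 positions. miR-200a, miR-200b and miR-200c sat in neighbouring wells of the plate.

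Outside the family, the assays nearest to the chromosome 4 mean were miR-367 (0.16), miR-128a (0.18), miR-30d (0.19), miR-345-5p (0.20) and miR-675-3p (0.22), against a median distance of 0.53 over 277 assays. Nearest to the chromosome 6 mean were miR-126-5p (0.11), miR-30a (0.13), miR-128a (0.13), miR-345-5p (0.14) and miR-31 (0.15), against a median of 0.49. Their own log2 fold changes lay between -0.14 and 0.13.

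The second card carries assays named hsa-miR-200b and hsa-miR-200c; as background, both mature miRNAs are conserved between human and mouse. With 2 samples per group, hsa-miR-200c had a Ct of 15.35 and 14.94 in room air against 14.90 and 15.52 in hyperoxia, and hsa-miR-200b 17.43 and 16.72 in room air against 16.95 and 17.39 in hyperoxia. In both, the groups overlapped. Relative to the second card's miRNAs the log2 fold changes were 0.12 ± 0.39 and 0.094 ± 0.41 (limma adjusted p = 0.935 and 0.948), with intervals as folds from 0.492 to 2.39 and from 0.469 to 2.43.

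In the same 4 samples the first-card assays gave -0.025 for miR-200c and 0.27 for miR-200b. The hsa-miR-200c assay read earlier than its first-card namesake in each of the 4 samples, with differences of -0.85, -2.12, -2.51 and -2.08 cycles, and hsa-miR-200b differed from its namesake by 0.037, -0.31, -1.05 and -0.20. The authors' deposited table gives a fold of 1.31 for hsa-miR-200c and 1.29 for hsa-miR-200b, the opposite side of 1 from the first-card wells, and it includes the shared second-card values and a first-card reference. In the assay number column of the second card, all 105 numbers that are also part of a name stand 3 wells after that name. The names were followed here, and the identity of single second-card wells is uncertain to that extent.

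The opposite strands of 4 of the hairpins were read on the second card. They are shown because their bases 2 to 8, in capitals, differ from the seeds above.
mmu-miR-200b-5p: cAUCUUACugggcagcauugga
mmu-miR-200a-5p: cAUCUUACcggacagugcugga
mmu-miR-200c-5p: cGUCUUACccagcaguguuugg
mmu-miR-141-5p: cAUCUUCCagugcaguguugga

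All of these came many cycles later than the main strand of the same hairpin on the first card. The gap was 6.48 to 7.31 cycles for hsa-miR-200a#, 5.96 to 8.20 for hsa-miR-200b#, 6.35 to 9.64 for mmu-miR-141# and 9.87 to 11.8 for hsa-miR-200c# over the 4 samples, with cards and assays differing between the strands. The # sign marks the opposite strand in the assay names.

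Like those of the main strands, their log2 fold changes did not exceed the spread between samples: 0.033 ± 0.35 for hsa-miR-200a#, 0.11 ± 0.74 for hsa-miR-200b#, 0.20 ± 0.50 for hsa-miR-200c# and -0.40 ± 1.65 for mmu-miR-141#, with limma adjusted p from 0.933 to 0.973. Of the 4, 0 passed in either direction. mmu-miR-141# varied most, with a Ct of 26.75 and 30.28 in room air against 30.27 and 27.94 in hyperoxia, and its interval allows nearly any change.

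**Figure D4:**
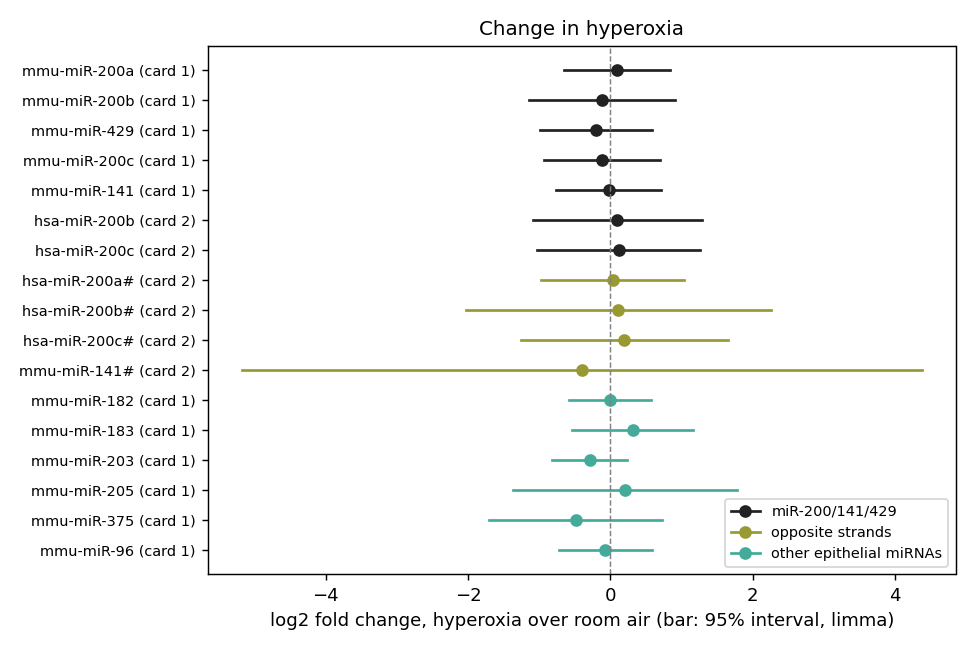
Points give each assay's log2 fold change, hyperoxia over room air, and bars their 95% intervals from limma, for the family (black), its opposite strands (olive) and other epithelial miRNAs (green); first-card assays have 3 samples per group and second-card assays 2. All 17 intervals include 0, and that of mmu-miR-141# is the widest.

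Other miRNAs typical of epithelia were set beside the family: miR-203 of stratified epithelium, miR-205, the clustered miR-183, miR-96 and miR-182, and miR-375 of neuroendocrine and secretory cells. Of 6 tested, 2 were above 0 and 4 below, 0 passed in either direction, and the median was -0.04, against -0.12 over all 551 assays. miR-203, at 3.26 ± 0.035 (SD, n = 3) in room air against 2.97 ± 0.11 in hyperoxia, had a change of -0.29 ± 0.21 (limma adjusted p = 0.689). It was the 1 assay of the 6 with all hyperoxia samples below all room air samples, as 16.3% of first-card assays were. miR-375 was at -0.49 ± 0.49 (adjusted p = 0.775). The summed level of the 6 ran from 4.45 to 4.74 in room air and from 4.17 to 4.56 in hyperoxia on the log2 scale.

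miRNAs known from epithelial-mesenchymal transition formed the second comparison list, chosen for that link and with earlier results of these data known. Of 12 assays tested, 9 were above 0 and 3 below, with a median of 0.55 and 0 passing in either direction. Over all 551 assays, 232 were above 0 and 319 below, with a median of -0.12. miR-34b and miR-10b are each counted by several assays, and the list was not divided by role in the transition. The p53-induced miR-34a, which represses the transition factor Snail, was at 2.55 ± 0.28 (limma adjusted p = 0.0723), and miR-21 was at 1.61 ± 0.33 (adjusted p = 0.314). The clustered miR-221 and miR-222 were at 1.30 ± 0.31 (adjusted p = 0.333) and 0.72 ± 0.32 (adjusted p = 0.61). These 4 of the 9 first-card assays of the list had every hyperoxia value above every room air value, as 5.67% of first-card assays did. miR-10b, a miRNA induced by the transition factor Twist, was at -0.74 ± 0.31 on the first card (adjusted p = 0.589) and at -0.31 ± 0.60 on the second. miR-155, a target of TGF-beta signalling, was at 0.94 ± 0.63 (adjusted p = 0.689). On the first card miR-34c was at 0.47 ± 0.54, miR-9 at 0.11 ± 0.31 and miR-34b-3p at -0.48 ± 0.48, with groups that overlapped. On the second card miR-34b-5p was at 0.62 ± 0.54 and miR-34b at 0.24 ± 0.42, also with groups that overlapped.

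Markers of other lung cells gave these summed levels on the first card (log2 scale). The endothelial miR-126 strands ran from 10.1 to 11.2 in room air and from 10.1 to 10.3 in hyperoxia, smooth muscle and mesenchymal miRNAs (4 assays) from 8.38 to 8.62 and from 7.98 to 8.37, and leukocyte miRNAs (4 assays) from 6.53 to 6.90 and from 6.06 to 7.10. Ciliated airway miRNAs (3 assays) ran from 4.82 to 5.30 and from 3.26 to 4.98, and erythroid miRNAs (2 assays) from 1.17 to 3.35 and from 1.39 to 4.11. Striated muscle miRNAs (6 assays) ran from 3.49 to 10.2 and from 2.32 to 5.40, with the top of both ranges set by miR-499, which was at 10.2 in room air 1 and 4.98 in hyperoxia 2 and between -10.7 and -6.57 elsewhere; without it, a step added after seeing the data, they ran from 3.49 to 4.54 and from 2.32 to 3.54. Of these 6 cell lists, the mesenchymal sums alone did not overlap between the groups, by a margin far smaller than the spread within either. The highest assay in that sum was miR-145, at 8.06 in room air and 7.38 in hyperoxia. It was the 1 assay of the 4 with all hyperoxia samples below all room air samples, as 16.3% of first-card assays were. Over both cards, 4 of the 8 assays of that list were above 0 and 4 below, with a median of 0.11. miR-199a-5p, not detected in hyperoxia 3, was not in the sum. The ciliated, leukocyte and striated muscle lists each also had 1 first-card assay with hyperoxia wholly below room air, as 16.3% of first-card assays did. They were miR-449a at -1.44 ± 0.67, miR-150 at -1.09 ± 0.27 and miR-208b at -1.06 ± 0.25 (limma adjusted p = 0.632, 0.333 and 0.333). Over both cards, 3 leukocyte assays were above 0 and 2 below, against 1 and 6 for striated muscle and 3 and 3 for ciliated airway. Of all tested assays on these lists, 0 passed, and whether they bear on the family's values was not tested.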

How the data were processed

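Per the labels' protocols, Megaplex primer sets A and B primed reverse transcription, followed by 12 cycles of pre-amplification. The authors deposited 1 table of Ct values per well and sample, not normalized per the file headers, with a fold (a ratio of hyperoxia over room air) from group means; instrument, software and Ct threshold are not given in the sources used here. Wells without amplification are listed at 40.

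Computed here with R 4.3.3 and limma 3.58.1: Ct values of 35 or more were set missing, and each sample's Ct values were taken relative to the average of those miRNAs of the same card that were detected in all samples used (282 and 249 assays). Assays detected in at least 2 samples per group were tested (lmFit and eBayes, two-sided, 302 first-card and 249 second-card assays) with Benjamini-Hochberg adjustment over all 551 and a threshold of 0.05. The fit was tested on simulated data. Controls and a plant miRNA were left out of tests. The members, lists and settings were chosen with earlier results of these data known. Named are the members, their opposite strands, members of the lists and the 5 nearest first-card assays of each transcript. The alternatives cover the reference, the Ct ceiling, the detection filter, the cards, plate row G, the shared second-card values, the variance model, the replicate number and each sample left out.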

Additional observations from a re-analysis of the deposited data

How the results depend on the processing

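No family assay passed the test under any of the 23 alternatives run. With values this close to 0, signs turned. With the control RNAs as reference, miR-200a was at -0.47, hsa-miR-200b at -0.33 and hsa-miR-200c at -0.31; with U6 of row A, miR-200a was at -0.23. Without a reference these 3 were at -0.66, -0.092 and -0.068. Under quantile normalization miR-200a was at -0.12, miR-141 at 0.084, hsa-miR-200b at -0.77 and hsa-miR-200c at -1.42; the cause was not tested. With plate row G left out miR-141 was at 0.040, and with the shared values kept in hyperoxia alone hsa-miR-200b was at -0.18 and hsa-miR-200c at -0.12.

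With the replicate block, hsa-miR-200b was at -0.40 and hsa-miR-200c at -0.32, and the count of calls stayed at 0. On the second card only number 3 had values in both groups. These values are thus hyperoxia 3 minus room air 3 alone, with no spread of their own. The labels link same-numbered samples by number alone, and whether they share anything else was not tested. Their deviations correlated at -0.34, -0.23 and -0.18.

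With 1 sample left out, miR-200a ran from -0.059 to 0.36, miR-200b from -0.41 to 0.28, miR-429 from -0.42 to 0.064, miR-200c from -0.30 to 0.11 and miR-141 from -0.28 to 0.11. On the second card hsa-miR-200b ran from -0.22 to 0.39 and hsa-miR-200c from -0.29 to 0.34, where a lone sample was assumed to vary like the other group.

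The count of calls over the whole table was 0 as reported; it was 1 with a Ct ceiling of 32, with the first card alone, with row G left out and with the trended robust variance, 8 with every Ct taken as measured, and 0 to 4 with 1 sample left out (4 without hyperoxia 1). The difference between the transcripts, computed in all alternatives but the replicate block and the trended robust variance, which concern tests alone, moved by less than the SD between samples; it was 0.21 under quantile normalization and from -0.14 to 0.19 with 1 sample left out. The number of samples limits the precision.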
